A study of Mus musculus with 4 samples.

Results

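LSK cells and MP cells, sorted from the same bone marrow, were compared on all 4 arrays of the study, 2 of LSK and 2 of MP. LSK cells lack mature lineage markers (Lin-) and carry c-Kit and Sca-1 on their surface, and MP cells are Lin-, c-Kit-positive and Sca-1-negative. There were 2 pools of mice, called the WT pool (Smo flox/flox, Mx1Cre-) and the Smo-deficient pool (Smo flox/flox, Mx1Cre+). All mice thus carried the floxed Smo alleles, whose product Smoothened transmits the hedgehog signal. They were of both sexes and received 3 intraperitoneal injections of polyI:C, 20 ug/g, on alternate days, and marrow was taken 6 weeks later; their age is not given in the labels. The strain is labelled C57BL/6x129 for WT LSK, C57BL/6x130 for Smo-deficient LSK, C57BL/6x131 for WT MP and C57BL/6x132 for Smo-deficient MP. These labels differ between LSK and MP of a genotype, although both were sorted from 1 pool of mice, so they cannot be read as a strain difference between the populations. Marrow of 4 mice per genotype was pooled before sorting, so each group is 1 array and each genotype is 1 pool. Cre is driven in this line by the Mx1 promoter, which responds to interferon in many cell types, and polyI:C induces interferon; controls received it too. RNA of 20 ng per sample was amplified in 2 cycles, and the arrays were Affymetrix mouse whole-genome arrays. LSK minus MP was taken within each pool, which asks what the stem-cell-containing fraction expresses beyond the committed progenitors next to it.

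The LSK fraction holds the hematopoietic stem cells, most of which divide rarely, together with multipotent progenitors. The MP fraction holds committed progenitors of granulocytes, monocytes, red cells and platelets, most of which are dividing. Stem cells are known to keep a set of antiviral genes active without infection, genes that interferon raises in most other cells. They are also known for slow protein synthesis and for sharing surface receptors with the endothelium, from which they arise in the embryo.

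Values below are log2 of the deposited intensities. Each difference is LSK minus MP averaged over the 2 pools, ± the standard error of limma's fit (n = 2 pools), and each gene is read on its brightest probe set. A gene was called when limma's Benjamini-Hochberg adjusted p over all probe sets tested was below 0.05, with the pool in the model. These p-values and standard errors rest on how far LSK minus MP differed between 2 pools of different genotype. Neither measures the spread between mice of 1 genotype. With 1 residual degree of freedom, limma draws each probe set's variance towards that of other probe sets of similar mean level. Genes were tested when their mean level lay above 7.23, the middle of all probe sets; where both arrays of a population lay below that level, no fold is given. Where 2 values are given for a population, the WT array comes first. The sort was read first. Kit, which encodes c-Kit, was 12.51 (WT) and 12.65 (Smo-deficient) in LSK and 12.31 (WT) and 12.40 (Smo-deficient) in MP, a difference of 0.22 ± 0.07 that did not pass (adjusted p = 0.0825). The other Kit probe set gave -0.15 and did not pass either. Sca-1 could not be checked, because no probe set of the annotation used here is named Ly6a. Cd34, an antigen of early progenitors, was 13.20 and 13.61 in LSK against 12.04 and 12.66 in MP (1.06 ± 0.08, adjusted p = 0.000465). Flt3, a cytokine receptor of multipotent progenitors, was 11.20 and 12.41 in LSK against 9.94 and 10.89 in MP (1.39 ± 0.11, adjusted p = 0.000586). Mpo, the myeloperoxidase of granulocyte and monocyte progenitors, was 14.54 and 14.73 in LSK against 14.95 and 15.16 in MP (-0.42 ± 0.03, adjusted p = 0.000606). Smo was 10.02 and 6.96 in LSK against 9.72 and 7.94 in MP, WT first, lower in both populations of the Smo-deficient pool. Actb control probe sets for the 3' end exceeded those for the 5' end, a measure of RNA length and amplification, by 1.55 and 1.53 in LSK and 1.34 and 1.31 in MP. For Gapdh the same difference was 1.57 and 1.78 in LSK and 1.587 and 1.597 in MP. Hybridisation spikes were higher in LSK than in MP by 0.05 ± 0.07 for WT and by 0.52 ± 0.09 for Smo-deficient arrays (SD over 9 probe sets). Poly-A spikes were higher in LSK in both pools, by 0.41 ± 0.18 (WT) and 0.46 ± 0.25 (Smo-deficient; SD over 12 probe sets). The part of these technical differences in the results was not tested.

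Far more genes were higher in LSK than lower. Of 11904 genes tested, 1951 (16.4%) were called higher in LSK and 898 (7.54%) lower, and these shares are the background for every count below. All 2849 called genes differed in the same direction in both pools, which a call on the mean of the same 2 differences favours. Of all genes tested, called or not, 76.9% did. Across genes, the differences of the 2 pools, which share no array, had a Pearson correlation of 0.85 and a Spearman correlation of 0.75; genes are not independent replicates. At least 2-fold differences were also commoner upwards, with 408 called genes (3.43%) at least 2-fold higher in LSK and 140 (1.18%) at least 2-fold lower. Of the calls 68.5% were upward, and this split depended on the scaling: after quantile normalization 1747 genes were higher and 1421 lower (55.1% upward), and after cyclic loess 2076 and 1162 (64.1%). Without the pool in the model 560 genes were called higher and 84 lower, all of them among the calls made with it. RNA of sorted fractions was measured, so more cells of a type and more RNA per cell cannot be told apart anywhere below.

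**Figure D1:**
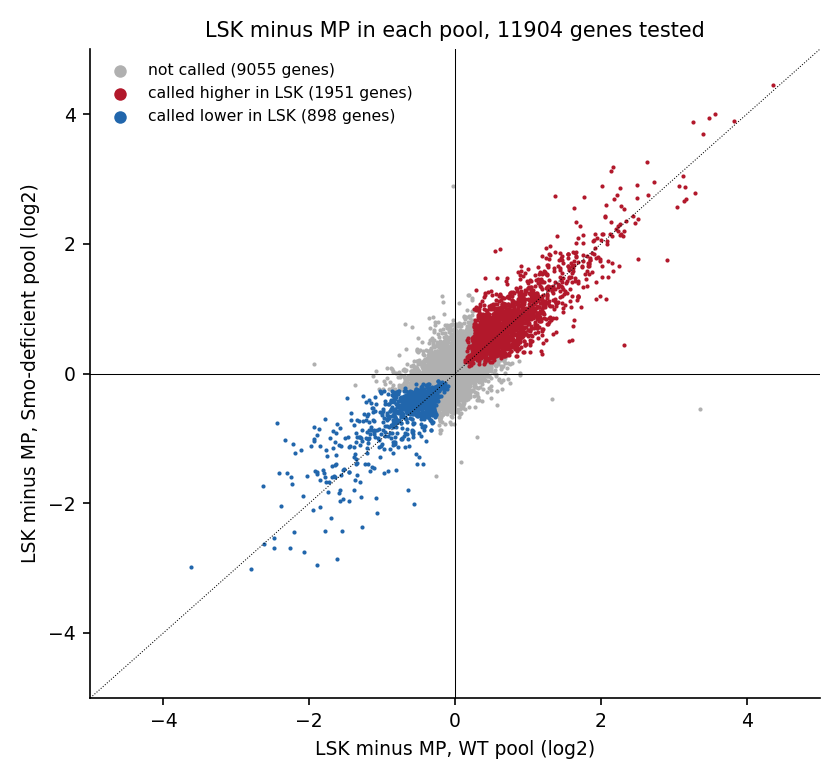
LSK minus MP of the WT pool (horizontal, log2) against that of the Smo-deficient pool (vertical, log2) for the 11904 genes tested, 1 point per gene, coloured by call. The 1951 genes called higher and the 898 called lower lie on either side of 0 in both pools, along the dotted line of equal differences; Iglv1, at 3.36 (WT) and -0.55 (Smo-deficient), lies far from it and was not called.

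Gene families differed in which way they leaned. Among 81 lists of genes grouped by family or role, 26 had over 2 times the background share of members called higher and 20 had over 2 times the background share called lower. A small list can enter these counts on 1 gene, as did the Hoxa cluster (1 of 3 tested called higher) and the Ly6 family (1 of 5 called lower). The lists were chosen with earlier results of these data known. The lists with the largest shares called higher held immediate early genes, interferon-induced GTPases, antigen-presentation genes, Gimap GTPases and TGF-beta and BMP signalling genes. Antioxidant genes, ribosome assembly factors, iron handling genes, mitochondrial ribosomal proteins and tRNA synthetases had large shares called lower. Levels of near-identical family members (among them Gbp, Gimap, H2, Trim and histone genes) can share signal on these arrays and are uncertain gene by gene.

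**Figure D2:**
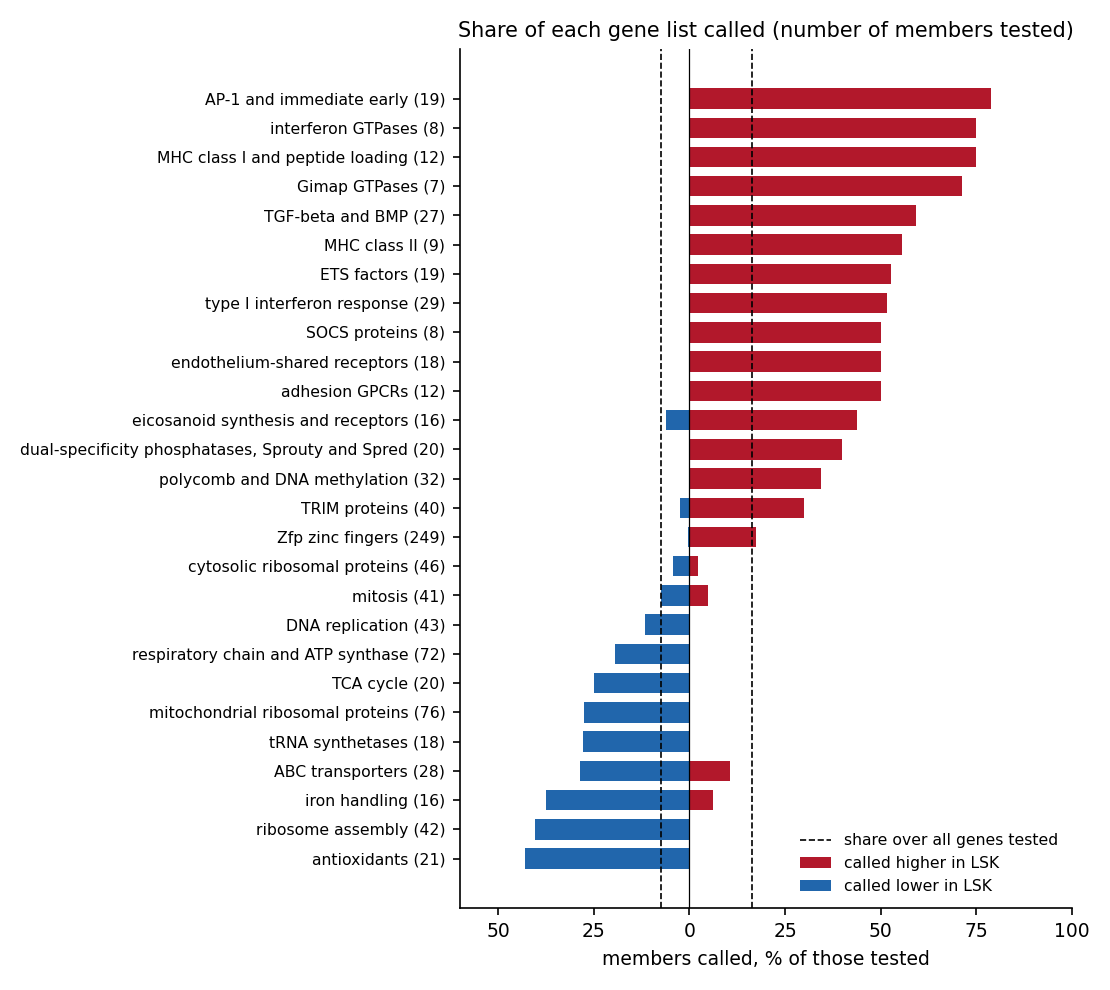
Share of the tested members of 27 gene lists called higher in LSK (red, right) or lower (blue, left), in percent, with the number tested in brackets; dashed lines mark 16.4% and 7.54%, the shares over all genes tested. The upper lists run from 78.9% of immediate early genes called higher down to the zinc fingers near the background, and the lower lists end with 42.9% of antioxidant genes called lower.

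Host-defence genes were higher in LSK across several families, though not in all. A further list of interferon-inducible genes had 1 of 4 tested called higher, none lower, and a median of -0.04. Its members ran from -0.92 to 1.23, and none was called without the pool in the model. Symbols beginning with Ifi had 4 of 11 called higher and 1 lower, with differences from -1.72 to 2.04. Interferon-induced GTPases, which attack the vacuoles of intracellular pathogens, had 6 of 8 tested members called higher, none lower, and a median difference of 1.04 against 0.00 over all genes. Gbp2 had log2 levels of 11.42 (WT) and 11.68 (Smo-deficient) in LSK and 9.29 (WT) and 9.53 (Smo-deficient) in MP, 4.40-fold higher in LSK (2.14 ± 0.11, adjusted p = 0.000141). Iigp1, an immunity-related GTPase, was 9.56 and 9.55 in LSK against 7.53 and 7.40 in MP (2.09 ± 0.11, adjusted p = 0.000165). In both genes the LSK arrays lay well above the MP arrays, and the genotypes were close. Gbp2b followed at 1.70 and Irgm2 at 1.32, then Gbp7 (0.75) and Igtp (0.71). The other 2 tested, Irgm1 (0.28) and Gbp3 (0.06), did not pass. Of the 6 calls 5 held without the pool in the model.

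The promoters of these GTPases are shown because most hold the pair of GAAA repeats found in interferon-stimulated response elements. The motif, GAAA followed by any 2 bases and a second GAAA, was searched on both strands from 250 bases before to 50 after each RefSeq transcript start (GRCm38.p6). It was present in 7 of 8 promoters of the list (87.5%), against 2.99% of 12289 promoters of the genes tested. The 100 bases before the start are given 5′ to 3′ along the gene, with the motif or its reverse complement in capitals, all on the plus strand: chr3:142620563-142620662 for Gbp2, chr3:142530236-142530335 for Gbp7, chr11:58199456-58199555 for Igtp and chr11:58214877-58214976 for Irgm2.
Gbp2: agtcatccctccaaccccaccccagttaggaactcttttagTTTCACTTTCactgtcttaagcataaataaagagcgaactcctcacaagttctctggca
Gbp7: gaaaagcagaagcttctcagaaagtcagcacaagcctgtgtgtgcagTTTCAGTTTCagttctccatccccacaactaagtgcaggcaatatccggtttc
Igtp: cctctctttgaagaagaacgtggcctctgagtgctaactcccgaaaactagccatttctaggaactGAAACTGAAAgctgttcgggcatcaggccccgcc
Irgm2: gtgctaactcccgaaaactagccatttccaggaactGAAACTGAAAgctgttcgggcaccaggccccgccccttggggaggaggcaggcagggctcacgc

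The motif begins 59 bases before the start in Gbp2, 53 bases before it in Gbp7, 34 in Igtp and 64 in Irgm2. Igtp and Irgm2 share a stretch of 29 bases that holds it. Among all promoters of genes at least 2-fold higher in LSK the share with the motif was 7.5% (33 of 440), and among those at least 2-fold lower it was 0.699% (1 of 143). In the type I interferon list it was 38.7% (12 of 31). A match describes letters in the window and does not show that a factor binds there.

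Genes of the type I interferon response, the antiviral programme that polyI:C triggers, had 15 of 29 members called higher and none lower (median 0.52); after quantile normalization 14 were higher and 2 lower. Oasl2, of the oligoadenylate synthetase family that senses double-stranded RNA, had the largest difference. Its log2 levels were 9.49 (WT) and 10.06 (Smo-deficient) in LSK and 7.00 (WT) and 7.14 (Smo-deficient) in MP, a difference of 2.70 ± 0.14 (adjusted p = 0.000141), with both MP arrays below 7.23. Rtp4, an interferon-induced receptor chaperone, was 10.20 and 10.56 in LSK against 8.91 and 8.80 in MP, 2.88-fold higher (1.53 ± 0.14, adjusted p = 0.001). The membrane proteins Ifitm3 and Ifitm1, which block virus entry, were bright in both populations: Ifitm3 was 13.18 and 13.19 in LSK against 11.78 and 12.11 in MP (2.36-fold) and Ifitm1 13.81 and 14.03 in LSK against 12.62 and 13.10 in MP (2.09-fold). Ddx58, which encodes the RNA sensor RIG-I, differed by 1.16 ± 0.11, and Usp18, which removes the ubiquitin-like ISG15, by 0.94 ± 0.12. The list was not uniform. Oasl1 (-0.30), Isg20 (-0.30) and Ifitm6 (-0.09) had negative differences that did not pass, and Mx2 (0.05) and Bst2 (0.02) were near 0. Leaving the pool out of the model left 8 members called. All 4 arrays are from mice given polyI:C, and its part in these levels was not tested.

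Genes whose symbols begin with Parp, ADP-ribosyltransferases of which several take part in antiviral defence, had the largest share called higher among 202 symbol stems with at least 8 genes tested, 7 of 11 (median 0.57). Parp12 was 10.62 and 10.34 in LSK against 9.07 and 8.68 in MP, 3.05-fold higher (1.61 ± 0.11, adjusted p = 0.000399), and Parp14 differed by 0.88 ± 0.15. Parp6 (0.77), Parp9 (0.61), Parp4 (0.59), Parp16 (0.57) and Parp11 (0.54) were also called; these genes were named after their values were seen. Of these calls 3 held without the pool in the model. TRIM proteins, ubiquitin ligases that include restriction factors of viruses, had 12 of 40 called higher and 1 lower. Of the 12, 6 are neighbours on chromosome 7, from Trim34a and Trim5 through Trim12a and Trim12c to Trim30a and Trim30d, with differences from 0.40 to 1.03. Trim14, an adaptor of antiviral signalling, was 10.91 and 11.17 in LSK against 9.76 and 10.15 in MP (1.09 ± 0.11, adjusted p = 0.0013). Trim45 was the 1 called lower (-0.49 ± 0.12, adjusted p = 0.0295). Of the 12 TRIM calls 3 held without the pool in the model.

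Inflammatory caspases lay next to each other as well. On chromosome 9 Casp1, which matures interleukin 1 and interleukin 18, and Casp4 and Casp12 formed a run with Msantd4. Casp4, a sensor of bacterial lipopolysaccharide, was 9.69 (WT) and 9.28 (Smo-deficient) in LSK and 8.42 (WT) and 7.60 (Smo-deficient) in MP, 2.78-fold higher (1.48 ± 0.13, adjusted p = 0.000916). Casp12 was 9.01 and 8.54 in LSK against 6.85 and 6.84 in MP (1.93 ± 0.14, adjusted p = 0.000433), below 7.23 in both MP arrays, and Casp1 differed by 0.52 ± 0.11. All symbols beginning with Casp had 5 of 9 called higher. Il18, a cytokine that Casp1 activates, was 10.28 and 11.02 in LSK against 8.27 and 8.14 in MP, 5.46-fold higher (2.45 ± 0.20, adjusted p = 0.000666). Tlr4, the lipopolysaccharide receptor, was the 1 of 6 tested Toll-like receptors that was called (1.39 ± 0.12, adjusted p = 0.000734); its other probe set differed by 0.27. Schlafens, of which several restrict viruses or growth, had 3 of 6 called higher, led by Slfn9 (0.99 ± 0.12).

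Gimap GTPases, which govern lymphocyte survival, had the largest list median, 1.95, with 5 of 7 called higher. Gimap6 was 10.20 and 10.76 in LSK against 8.02 and 8.06 in MP (5.41-fold) and Gimap1 10.60 and 10.98 in LSK against 8.32 and 8.40 in MP (5.37-fold). Gimap8 (3.71 ± 0.14) and Gimap5 (1.95 ± 0.13) were below 7.23 in both MP arrays, Gimap9 differed by 0.99 ± 0.14, and Gimap4 (0.36, adjusted p = 0.0739) and Gimap3 (0.04, adjusted p = 0.8075) did not pass. All 5 calls held without the pool in the model.

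Antigen presentation genes were higher in LSK by smaller amounts. MHC class I heavy chains and their peptide-loading genes had 9 of 12 called higher, and all 12 had positive differences in both pools (median 0.34). Nlrc5, the transactivator of class I genes, was 9.96 and 9.85 in LSK against 9.16 and 8.82 in MP (0.91 ± 0.12, adjusted p = 0.0033). The peptide transporter subunits Tap1 (0.54 ± 0.10) and Tap2 (0.48 ± 0.12) lie beside the immunoproteasome genes Psmb9 (0.30) and Psmb8 (0.28) and the class II genes H2-Ob, H2-Ab1, H2-Aa and H2-Eb1, and these 8 neighbours on chromosome 17 were all called higher. MHC class II, which presents peptides to helper T cells, had 5 of 9 called higher (median 0.55). H2-Ob, a chain that restrains peptide exchange, was 9.81 (WT) and 11.02 (Smo-deficient) in LSK and 7.90 (WT) and 8.96 (Smo-deficient) in MP, 3.95-fold higher (1.98 ± 0.11, adjusted p = 0.00022). H2-Aa was 11.59 and 12.24 in LSK against 10.57 and 11.10 in MP (1.08 ± 0.10, adjusted p = 0.000898; other probe sets 0.42 to 0.97). In both genes the Smo-deficient arrays lay above the WT arrays of their population, and without the pool in the model 0 class II members (5 at an unadjusted limma p below 0.05) and 1 class I member were called. The invariant chain Cd74 was not called (0.30, adjusted p = 0.1382). Dendritic cells and B cells carry class II, and the summed intensity of 9 dendritic markers was 3906 and 7111 in the LSK arrays and 2612 and 3524 in the MP arrays (WT first), with 1 of 5 tested called higher and 1 lower. For 11 B cell markers it was 2887 and 4922 in the LSK arrays and 3014 and 3676 in the MP arrays (WT first), with 1 of 10 tested called. Siglech, Ccr9, Xcr1, Cd209a and Ebf1 were below 7.23 on all arrays. The part of such cells in these results was not tested.

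**Figure D3:**
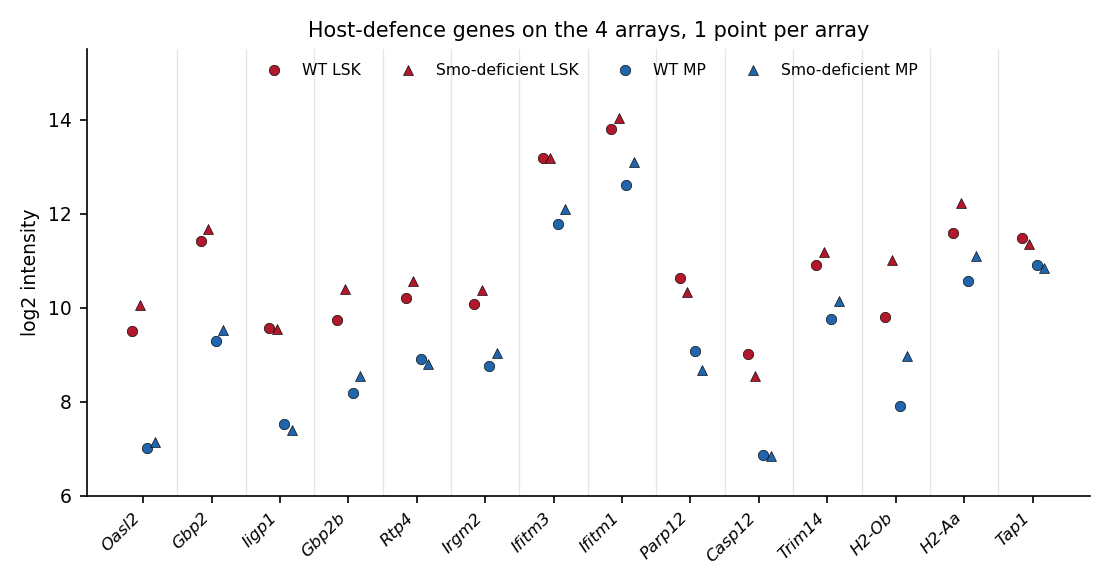
Log2 intensity of 14 host-defence genes on each array: LSK in red, MP in blue, circles for WT and triangles for Smo-deficient. For every gene shown both LSK points lie above both MP points; levels of different genes are not comparable.

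Immediate early genes, which cells switch on within minutes of a stimulus, had the largest share called higher of all 81 lists, 15 of 19, none lower (median 0.66). Nr4a1, an orphan nuclear receptor, was 12.75 (WT) and 13.10 (Smo-deficient) in LSK and 10.62 (WT) and 10.76 (Smo-deficient) in MP, 4.71-fold higher (2.24 ± 0.10, adjusted p = 0.000116). Egr1, a zinc finger factor linked to stem cell quiescence, was 14.19 and 14.14 in LSK against 13.24 and 13.15 in MP, 1.96-fold higher (0.97 ± 0.05, adjusted p = 0.000163). Both were bright on all 4 arrays. Ier3 (1.03 ± 0.09), Egr2 (0.98 ± 0.18), Fosl2 (0.97 ± 0.12) and Zfp36 (0.88 ± 0.07), which destabilises cytokine mRNAs, were called too; the other Fosl2 probe set differed by -0.21. Egr3 (-0.18, adjusted p = 0.2914), Nr4a3 (-0.14, adjusted p = 0.4358), Fosl1 (0.03) and Jund (0.19) did not pass. Without the pool in the model 4 of the 15 were called.

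ETS factors, which share a GGA-binding domain, had 10 of 19 called higher and none lower (median 0.42), and 2 of the 10 were called without the pool in the model. Erg, required for stem cell maintenance, was 11.45 (WT) and 11.61 (Smo-deficient) in LSK and 9.34 (WT) and 9.88 (Smo-deficient) in MP, 3.78-fold higher (1.92 ± 0.13, adjusted p = 0.000335). Elk3 was 11.12 and 11.62 in LSK against 9.74 and 10.53 in MP (1.24 ± 0.12), Etv6 12.76 and 12.94 in LSK against 11.61 and 11.79 in MP (1.15 ± 0.08) and Fli1 11.48 and 11.51 in LSK against 10.21 and 10.75 in MP (1.02 ± 0.14); Etv6 has another probe set with 0.20. Spi1, the myeloid factor PU.1, was not called (0.12, adjusted p = 0.5458). Homeobox partners of the TALE class had 3 of 6 called higher. Meis1 was 12.66 and 12.68 in LSK against 10.45 and 10.45 in MP, 4.66-fold higher (2.22 ± 0.09, adjusted p = 0.000108), and Pbx3 differed by 0.60 ± 0.14 (other probe set 0.10). The other Meis1 probe set gave 1.03. Sox6, a repressor in the red cell lineage, was 9.98 and 10.77 in LSK against 8.31 and 8.95 in MP (3.34-fold, 1.74 ± 0.12).

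Kruppel-like factors split by member. Klf4 (1.07 ± 0.12), Klf6 (0.89 ± 0.08), Klf2 (0.83 ± 0.09) and Klf10 (0.59 ± 0.14) were higher in LSK. Klf1, the red cell factor, was lower: 12.30 and 11.61 in LSK against 13.88 and 13.40 in MP, 3.22-fold (-1.69 ± 0.08, adjusted p = 0.000141). Circadian clock and PAR bZIP genes had 4 of 16 called higher, Hlf (2.95 ± 0.16), Nr1d2 (0.88 ± 0.11), Dbp (0.69 ± 0.12) and Per1 (0.61 ± 0.12). Mycn, a relative of Myc active in stem cells, was 11.77 and 11.85 in LSK against 9.47 and 9.73 in MP (4.64-fold, 2.21 ± 0.11, adjusted p = 0.000141), and its other probe sets, -0.05 to 0.10, did not show the difference. Nfatc2, a calcium-regulated factor, was 9.29 and 10.03 in LSK against 7.52 and 7.30 in MP (2.25 ± 0.22, adjusted p = 0.0011), again on 1 probe set (others -0.07 to 0.06). Among 249 Zfp zinc fingers 43 were called higher (17.3%), near the background, and 1 lower (0.40%), below it. Zfp521, a factor of early hematopoietic cells, was 9.40 and 9.69 in LSK against 7.66 and 8.06 in MP (3.22-fold, 1.69 ± 0.11; other probe set 0.51).

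Polycomb and DNA methylation genes, a list that holds genes that add and genes that oxidise methylcytosine, had 11 of 32 called higher and none lower (median 0.15). Of the 32, 20 had positive and 12 negative differences. The de novo methyltransferase Dnmt3b was 12.75 and 12.70 in LSK against 11.46 and 11.59 in MP, 2.30-fold higher (1.20 ± 0.09, adjusted p = 0.000435), and its other probe set gave 1.38. Tet1, which oxidises methylcytosine, differed by 0.96 ± 0.14 (other probe sets 0.10 to 0.47), and Dnmt3a by 0.69 ± 0.12 with its other probe sets at -0.05 to 1.06. The Polycomb subunits Cbx6 (0.68 ± 0.12), Phc1 (0.67 ± 0.11) and Cbx2 (0.67 ± 0.12) were also higher. Without the pool in the model 1 member was called, Dnmt3b (adjusted p = 0.0102).

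Feedback inhibitors of cytokine and growth factor signals were higher in LSK, some by a wide margin. SOCS proteins, which shut off JAK and STAT signalling, had 4 of 8 called higher (median 0.69). Socs2 was 10.25 (WT) and 10.07 (Smo-deficient) in LSK and 7.53 (WT) and 7.11 (Smo-deficient) in MP (2.84 ± 0.12, adjusted p = 0.000111), and its other probe sets ranged from 0.00 to 3.48. Socs3 was 10.92 and 11.69 in LSK against 8.60 and 9.15 in MP, 5.39-fold higher (2.43 ± 0.12, adjusted p = 0.000141; other probe sets 1.03 to 2.47). Cish differed by 1.26 ± 0.12 and Socs5 by 1.06 ± 0.18, the other Socs5 probe set by -0.01. Dual-specificity phosphatases, Sprouty and Spred proteins, which damp MAP kinase signals, had 8 of 20 called higher and none lower. Dusp5, a nuclear ERK phosphatase, was 11.61 and 12.10 in LSK against 9.59 and 9.94 in MP, 4.24-fold higher (2.09 ± 0.11, adjusted p = 0.000147). Spry1 was 10.71 and 10.98 in LSK against 8.87 and 9.29 in MP, 3.40-fold higher (1.76 ± 0.11, adjusted p = 0.000301), and Dusp2 differed by 1.04 ± 0.12. Dusp3 (1.03 ± 0.23) and Spry2 (0.85 ± 0.18) were called on their brightest probe set only, with others at -0.08 to 0.07 and -0.05. Stat4, a signal transducer of interleukin 12, was 10.74 and 10.95 in LSK against 8.75 and 9.21 in MP (3.63-fold, 1.86 ± 0.12, adjusted p = 0.000313). Of 18 interleukin receptor chains 5 were called higher and 1 lower, with none of the 5 at 2-fold. Called higher without the pool in the model were 3 SOCS genes, 2 of the phosphatase, Sprouty and Spred list, and none of the receptor chains (5 at an unadjusted limma p below 0.05).

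TGF-beta and BMP signalling, which restrains stem cell division, had 16 of 27 genes called higher and none lower (median 0.56). Of the receptors, Acvr1b was 11.10 (WT) and 11.58 (Smo-deficient) in LSK and 9.28 (WT) and 9.91 (Smo-deficient) in MP, 3.34-fold higher (1.74 ± 0.11, adjusted p = 0.000295). Tgfbr2 was 11.74 and 12.04 in LSK against 10.83 and 10.78 in MP (1.09 ± 0.12, adjusted p = 0.0017), with 0.15 on its other probe set. Ltbp3, which stores latent TGF-beta outside the cell, was 11.75 and 12.03 in LSK against 10.19 and 10.44 in MP, 2.98-fold higher (1.58 ± 0.10, adjusted p = 0.000289). The transducers Smad5 (1.01 ± 0.11) and Smad1 (0.96 ± 0.12) and the repressor Skil (1.10 ± 0.18) were higher as well; the other Smad5 probe sets gave 0.07 to 0.26. Without the pool in the model 4 of the 16 were called.

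TNF ligands had 4 of 8 called higher. Ltb, which encodes lymphotoxin beta, was 9.48 and 10.62 in LSK against 7.22 and 7.76 in MP (2.56 ± 0.16, adjusted p = 0.000282), and Tnfsf10, the death ligand TRAIL, differed by 1.18 ± 0.15. Their receptors had 6 of 13 called higher, yet a median of -0.05, led by Tnfrsf13b (0.90 ± 0.12) and Tnfrsf18 (0.83 ± 0.12). Genes of eicosanoid synthesis and reception had 7 of 16 called higher and 1 lower. Tbxas1, thromboxane synthase, was 10.72 and 10.55 in LSK against 9.13 and 9.07 in MP, 2.91-fold higher (1.54 ± 0.11, adjusted p = 0.000454), and the prostaglandin E2 receptor Ptger3 was 11.92 and 11.57 in LSK against 10.69 and 10.01 in MP (2.63-fold). Ptgs2, the inducible cyclooxygenase, was 8.93 and 9.14 in LSK against 7.55 and 8.05 in MP (1.24 ± 0.12, adjusted p = 0.0012). Its neighbours on chromosome 1, Pla2g4a (0.88), which frees arachidonic acid, and the G protein regulators Rgs18 (0.89), Rgs1 (1.80) and Rgs2 (0.97), were all called higher. Tbxas1 and Ptger3 are also active in platelets. The summed intensity of 9 megakaryocyte markers was 29652 and 17680 in the LSK arrays and 14621 and 13573 in the MP arrays (WT first), with 6 of 8 tested called higher and none lower. It was highest in WT LSK, and its part in the result was not tested.

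P2ry14, a receptor for UDP-sugars, was 10.09 and 10.84 in LSK against 8.04 and 8.41 in MP, 4.72-fold higher (2.24 ± 0.13, adjusted p = 0.000238). On chromosome 3 it sits beside Gpr171 (1.75 ± 0.12), Med12l (1.45 ± 0.11) and Siah2 (0.43 ± 0.11), all called.

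Surface receptors shared with endothelium had 9 of 18 called higher and none lower (median 0.51). The angiopoietin receptor Tek was 8.997 (WT) and 8.81 (Smo-deficient) in LSK and 7.22 (WT) and 7.27 (Smo-deficient) in MP, 3.16-fold higher (1.66 ± 0.12, adjusted p = 0.000399), its relative Tie1 was 8.54 and 8.74 in LSK against 6.86 and 7.35 in MP (1.54 ± 0.12), and their ligand Angpt1 was 12.45 and 12.49 in LSK against 10.48 and 10.69 in MP, 3.68-fold higher (1.88 ± 0.10; other probe set 0.86). Ligand and receptor were thus both higher in the same fraction. Mmrn1, a multimerin of platelets and endothelium, was 11.03 and 10.96 in LSK against 8.68 and 8.61 in MP (5.10-fold), and Calcrl, the receptor of adrenomedullin, 11.31 and 12.14 in LSK against 9.65 and 10.26 in MP (3.40-fold). Of 4 tested stromal and endothelial markers none was called, and Cdh5, Emcn, Pdgfra, Col3a1 and Cxcl12 were below 7.23 on all arrays. The summed intensity of 11 such markers was 2710 and 1709 in the LSK arrays and 1887 and 1926 in the MP arrays (WT first). It was highest in WT LSK, and the part of stromal or endothelial cells was not tested. Of the 9 calls 8 held without the pool in the model.

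Adhesion G protein-coupled receptors had 6 of 12 called higher. Adgrl4, first known from endothelium, was 12.82 and 13.18 in LSK against 10.51 and 10.99 in MP, 4.76-fold higher (2.25 ± 0.09, adjusted p = 0.000108), and its other probe set gave 2.30. Adgrg1 was 12.54 and 12.38 in LSK against 11.06 and 10.90 in MP, 2.79-fold higher (1.48 ± 0.09), and Adgra3 differed by 1.33 ± 0.12. Junction proteins went both ways, 5 of 15 higher and 3 lower. Marveld2, tricellulin, was 8.48 and 8.50 in LSK against 6.04 and 6.07 in MP (2.44 ± 0.11, adjusted p = 0.000135), below 7.23 in both MP arrays. F11r (1.86 ± 0.11), Cldn12 (1.53 ± 0.11) and Esam (1.47 ± 0.12) were higher, while Cldn13 was lower: 9.95 and 9.96 in LSK against 12.25 and 11.50 in MP, 3.78-fold (-1.92 ± 0.18, adjusted p = 0.000998). Tetraspanins, organisers of membrane patches, had 9 of 21 called higher, led by Tspan6 (1.05 ± 0.13), and 2 lower, Tspan8 (-2.18 ± 0.21; other probe sets -0.30 to -0.25) and Tspan33 (-1.34 ± 0.13; others -1.41 to -1.06). Leaving the pool out kept 4 of the 6 adhesion receptors and 2 of the 9 tetraspanins.

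Receptors of the SLAM family, by which stem cells are sorted in many studies, form a run of 6 called neighbours on chromosome 1 with F11r: Cd244a, Slamf1, Ly9 (0.83 ± 0.11), Cd48 and Cd84 (0.64 ± 0.11). Cd244a was 9.38 and 10.09 in LSK against 6.87 and 7.70 in MP (2.45 ± 0.11, adjusted p = 0.00014; other probe set 0.80). Slamf1, the CD150 antigen of stem cells, was 9.69 and 9.19 in LSK against 8.11 and 8.16 in MP, 2.48-fold higher (adjusted p = 0.0023). Cd48, a marker that stem cells lack and multipotent progenitors carry, was 12.55 and 12.88 in LSK against 11.65 and 12.20 in MP, 1.72-fold higher (adjusted p = 0.0019). Sorted LSK cells were thus higher in a marker of either kind.

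Some large differences were in genes of unlike function. Itih5, which stabilises hyaluronan, was 12.60 (WT) and 12.82 (Smo-deficient) in LSK and 9.31 (WT) and 10.03 (Smo-deficient) in MP, 8.22-fold higher (3.04 ± 0.14, adjusted p = 0.00014; other probe sets 2.66 to 2.73). Csgalnact1, which starts chondroitin sulfate chains, was 10.84 and 11.32 in LSK against 8.61 and 8.56 in MP, 5.62-fold higher (2.49 ± 0.15). Sgce, an imprinted sarcoglycan, was 10.13 and 10.33 in LSK against 8.08 and 7.91 in MP (4.70-fold), and Rbpms, an RNA-binding protein, 10.44 and 10.71 in LSK against 7.97 and 8.39 in MP (5.26-fold). Tgm2, a transglutaminase, was 12.33 and 12.09 in LSK against 10.70 and 9.53 in MP (4.28-fold, 2.10 ± 0.20, adjusted p = 0.0012; other probe sets 0.08 to 2.04). Ctla2b, a cysteine protease inhibitor, was 11.86 and 12.15 in LSK against 9.21 and 9.39 in MP, 6.50-fold higher (2.70 ± 0.11).

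**Figure D4:**
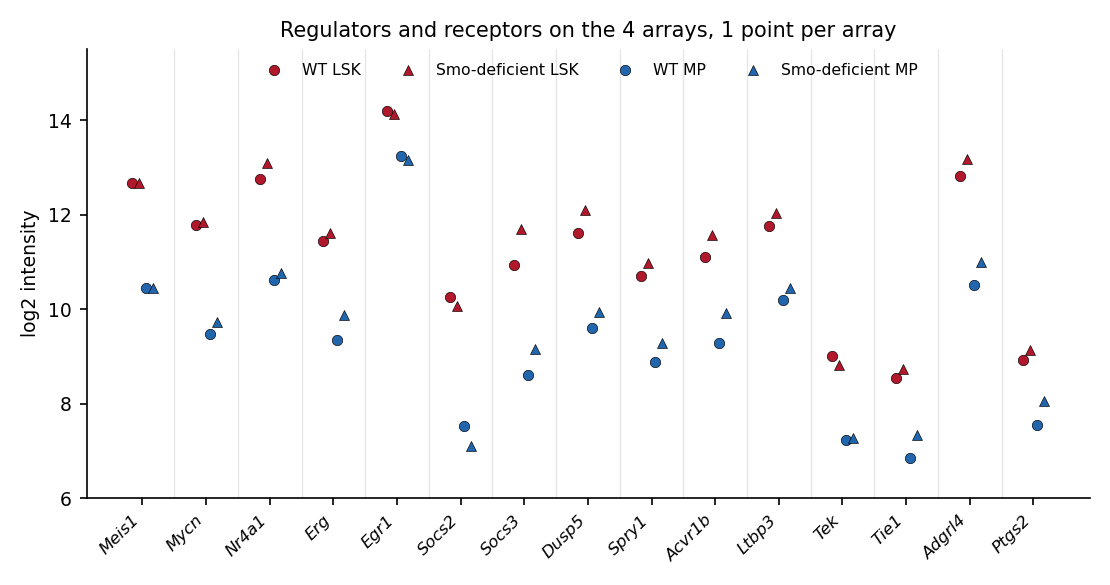
Log2 intensity of 15 regulators and receptors on each array: LSK in red, MP in blue, circles for WT and triangles for Smo-deficient. Both LSK points lie above both MP points for every gene shown; levels of different genes are not comparable.

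A small part of the called genes lay in runs of neighbours. Runs of at least 4 tested neighbours called in 1 direction numbered 19 for higher (93 genes, of 1951 called higher) and 1 for lower (4 genes, of 898 called lower). The longest, of 8 genes, were the MHC run above and one on chromosome 1 that holds Slc39a10 (0.55), a zinc importer, Cavin2 (1.40), a coat protein of caveolae, Stat4 and Inpp1 (1.11). On the X chromosome Gprasp1 (1.11 ± 0.11), Armcx2 (0.76 ± 0.08) and 3 genes beside them formed a run of 5. A run of 5 on chromosome 15 holds Selenop (1.17 ± 0.07), the selenium carrier, and Ghr, the growth hormone receptor, which was 7.89 and 8.22 in LSK against 6.43 and 6.40 in MP (1.64 ± 0.13, adjusted p = 0.000572). The single run called lower, on chromosome 17, holds the heat shock genes Hspa1a (-0.44 ± 0.08) and Hspa1b (-0.17 ± 0.05). No test of these runs was made.

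Genes of glucose use differed by member. Of 20 glycolytic genes 8 were higher in LSK and 3 lower, and 2 of the 8 and none of the 3 were called without the pool in the model (1 lower at an unadjusted limma p below 0.05). The glucose transporter Slc2a1 was 10.14 (WT) and 10.29 (Smo-deficient) in LSK and 8.46 (WT) and 9.11 (Smo-deficient) in MP, 2.69-fold higher (1.43 ± 0.15, adjusted p = 0.0015), and Slc2a3 differed by 0.72 ± 0.11. Aldoc, aldolase C, was 9.05 and 9.85 in LSK against 7.65 and 7.73 in MP (3.39-fold, 1.76 ± 0.18), whereas Aldoa, aldolase A, was lower by a small amount (-0.30 ± 0.06, adjusted p = 0.0155). Ldhb, lactate dehydrogenase B, was higher (0.76 ± 0.12). The hexokinases split too, with Hk2 higher (0.48 ± 0.10) and Hk1 (-0.29 ± 0.07) and Hk3 (-0.40) lower. The amino acid transporter Slc6a15 had the largest difference among solute carriers, 8.95 and 8.43 in LSK against 5.91 and 5.86 in MP (2.81 ± 0.14, adjusted p = 0.000141), with both MP arrays below 7.23. Slc18a2, the vesicular monoamine transporter, was 8.97 and 8.96 in LSK against 6.72 and 7.30 in MP (1.95 ± 0.16). The folate enzyme Aldh1l1 (1.05 ± 0.11) and Aldh5a1 (0.88 ± 0.11) were higher, while Aldh1a7 (-2.59 ± 0.12) and the retinaldehyde dehydrogenase Aldh1a1 (-0.59 ± 0.13) were lower.

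Genes lower in LSK, and so higher in MP, included transporters and iron handling genes. Sphk1, which makes sphingosine 1-phosphate, was 10.24 (WT) and 8.99 (Smo-deficient) in LSK and 13.03 (WT) and 11.99 (Smo-deficient) in MP, 7.47-fold lower (-2.90 ± 0.11, adjusted p = 9.86e-05). Slc38a5, a glutamine transporter, was 9.98 and 9.29 in LSK against 12.37 and 11.33 in MP, 4.65-fold lower (-2.22 ± 0.12), and Trib2, a pseudokinase, 10.17 and 9.05 in LSK against 11.96 and 11.48 in MP, 4.31-fold lower (-2.11 ± 0.16). Iron handling genes had 6 of 16 called lower and 1 higher, and 2 of the 6 were called without the pool in the model. The transferrin receptor Tfrc was 11.95 and 11.68 in LSK against 13.41 and 12.82 in MP, 2.46-fold lower (-1.30 ± 0.10, adjusted p = 0.000494). Slc40a1, the iron exporter ferroportin, was 9.98 and 10.27 in LSK against 11.91 and 11.10 in MP (-1.38 ± 0.24, adjusted p = 0.009), and the ferrireductase Steap3 7.90 and 8.14 in LSK against 9.09 and 9.15 in MP (-1.10 ± 0.11). ABC transporters had 8 of 28 called lower and 3 higher, of which none and 1 were called without the pool in the model (6 lower at an unadjusted limma p below 0.05). Abcb4, a phospholipid transporter, was 11.47 and 10.39 in LSK against 13.01 and 12.32 in MP, 3.33-fold lower (-1.74 ± 0.12), and the mitochondrial porphyrin carrier Abcb6 differed by -1.07 ± 0.18. Abcg1 (0.89 ± 0.10), a cholesterol exporter, was higher. The metallothioneins Mt2 (-2.41 ± 0.16) and Mt1 (-2.24 ± 0.26; other probe set -0.33, not called) were lower. Summed intensity of 7 mature red cell markers was 19206 and 22732 in the LSK arrays and 34440 and 28079 in the MP arrays (WT first), with 2 of 6 tested called lower. For 9 mast cell and basophil markers it was 4964 and 6365 in the LSK arrays and 8616 and 11379 in the MP arrays (WT first), with 5 of 6 tested called lower. The part of such cells in these differences was not tested.

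Promoters of genes with large negative differences are shown because GATAAG, the letters of the GATA factors' site, was commoner there. GATAAG on either strand was in 15.4% of 143 promoters of genes at least 2-fold lower in LSK, in 7.05% of 440 promoters of genes at least 2-fold higher, and in 5.39% of the promoters of all genes tested. Such a share was not particular to genes lower in LSK. Cytosolic ribosomal proteins, with a median difference of 0.02, had GATAAG in 21.6% of 51 promoters. Interleukin receptor chains, with 5 of 18 called higher and 1 lower, had it in 6 of 24. Mitochondrial ribosomal proteins, with 21 of 76 called lower, had it in 5.48% of 73. The AP-1 motif TGACTCA was commoner in both directions, 8.18% upward and 9.79% downward against 3.87%. The G+C share was 58.1538% and 57.3706% in these promoters, upward first, and 60.3819% in all. Shown are the 100 bases before the start of Pklr, the red cell pyruvate kinase (chr3:89136042-89136141, plus strand), Rhag, the Rh-associated glycoprotein (chr17:40811049-40811148, plus), F13a1, coagulation factor XIII A (chr13:37050245-37050344, minus), and Abcb4 (chr5:8893621-8893720, plus). Capitals mark GATAAG or its reverse complement. These promoters were picked because they hold it, as did 22 of the 143, and do not stand for the rest. Pklr and F13a1 have 2 promoters each, of which 1 with the motif is shown.
Pklr: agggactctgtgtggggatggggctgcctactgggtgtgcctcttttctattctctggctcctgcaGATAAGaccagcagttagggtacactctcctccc
Rhag: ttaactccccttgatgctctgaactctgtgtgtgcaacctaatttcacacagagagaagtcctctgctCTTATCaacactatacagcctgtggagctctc
F13a1: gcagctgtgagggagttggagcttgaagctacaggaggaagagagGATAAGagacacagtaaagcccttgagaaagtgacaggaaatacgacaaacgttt
Abcb4: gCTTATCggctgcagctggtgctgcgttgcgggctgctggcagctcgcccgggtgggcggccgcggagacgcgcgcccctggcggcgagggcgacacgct

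Pklr was 8.07 and 7.92 in LSK against 10.31 and 9.63 in MP (-1.97 ± 0.15, adjusted p = 0.000516), Rhag 8.85 and 9.03 in LSK against 11.26 and 10.56 in MP (-1.97 ± 0.20, adjusted p = 0.0014) and F13a1 9.63 and 10.65 in LSK against 11.48 and 12.29 in MP (-1.75 ± 0.11, adjusted p = 0.000273). In all of them both MP arrays lay above both LSK arrays, while the genotypes differed in opposite ways, with F13a1 higher and Abcb4 lower in both Smo-deficient arrays than in the WT arrays.

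Several groups of protein synthesis genes held many members lower in LSK by small amounts. Ribosome assembly factors, which build ribosomes in the nucleolus, had 17 of 42 called lower, none higher, and 39 of 42 with negative differences (median -0.26). Nop56, a core protein of the snoRNA complexes that methylate ribosomal RNA, was 12.30 (WT) and 11.95 (Smo-deficient) in LSK and 12.91 (WT) and 12.51 (Smo-deficient) in MP, 1.49-fold lower (-0.58 ± 0.08, adjusted p = 0.0033); its other probe set gave -0.17 and was not called. Nolc1 (-0.78 ± 0.08; other probe sets -0.15 to 0.08) and Wdr12 (-0.60 ± 0.09; other probe set 0.06) were likewise called on their brightest probe set only, and Ppan (-0.54 ± 0.10) and Rrp9 (-0.50 ± 0.10) have no other. Symbols beginning with Utp, parts of the small-subunit processome, had the largest share called lower among the 202 symbol stems, 7 of 11 (median -0.37). The ribosome's own cytosolic proteins did not follow: 1 of 46 was called higher and 2 lower (median 0.02). Translation initiation factors, taken by symbol, had 8 of 46 called lower (17.4%) and 3 higher (6.52%), with a median of -0.05. The 3 included the kinase genes Eif2ak2 (0.79, other probe set -0.01) and Eif2ak4. After quantile normalization 13 were lower and 2 higher. In promoters of assembly factors the E-box CACGTG was present in 17.8% and GGAAGT in 46.7% of 45, against 9.78% and 27.8% over all genes tested. These shares were not particular to them. Translation initiation factors had 21.6% and 47.1% of 51, whereas mitochondrial ribosomal proteins had 9.59% and 30.1% of 73.

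Several groups of mitochondrial genes did the same. Mitochondrial ribosomal proteins had 21 of 76 called lower, none higher, and 69 of 76 with negative differences (median -0.23). Mrps18b was 11.19 and 10.85 in LSK against 12.03 and 11.60 in MP, 1.74-fold lower (-0.80 ± 0.10, adjusted p = 0.0024). Symbols beginning with Timm, parts of the mitochondrial import machinery, had 8 of 14 called lower, and all 14 were negative in both pools (median -0.34). Respiratory chain and ATP synthase genes had 14 of 72 called lower (median -0.14), with Uqcr11 at 12.47 and 12.26 in LSK against 13.08 and 12.89 in MP (-0.62 ± 0.07, adjusted p = 0.0019). TCA cycle enzymes had 5 of 20 called lower, led by Sdhd (-0.67 ± 0.08; other probe set -0.35, not called), a succinate dehydrogenase subunit, and tRNA synthetases 5 of 18, led by Hars (-0.50 ± 0.07). No member of these lists was called higher. Fatty acid oxidation genes did not follow, with 2 of 20 higher and 1 lower (median -0.09). Antioxidant genes had 9 of 21 called lower, among them Gclm (-0.76 ± 0.09), which sets glutathione synthesis, Nqo1 (-0.75 ± 0.11), a quinone reductase, and their regulator Nfe2l2 (-0.47 ± 0.11). Of 46 proteasome genes 9 were lower, led by Psmd7 (-0.78 ± 0.11; other probe set -0.23, not called), and 3 higher, namely the immunoproteasome subunits Psmb8 and Psmb9 above and Psme1 (0.33), an interferon-induced activator. After quantile normalization those 3 were no longer called and 15 proteasome genes were lower.

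Nearly all of these calls needed the pool in the model. In Nop56, Mrps18b and Uqcr11 the Smo-deficient arrays lay below the WT arrays of the same population. Without the pool in the model none of the ribosome assembly, mitochondrial ribosomal, Timm, TCA cycle, tRNA synthetase or antioxidant genes was called (limma, where 84 genes were called lower in all; at an unadjusted p below 0.05, 9, 14, 6, 3, 2 and 6 were lower, in that order), and 1 respiratory chain gene, Cox6b2, was (adjusted p = 0.0309). In either pool alone the medians stayed negative, with -0.29 and -0.23 for ribosome assembly and -0.25 and -0.20 for mitochondrial ribosomal proteins (WT first). After quantile normalization, which moved the median of all genes by -0.06, 26 ribosome assembly and 34 mitochondrial ribosomal genes were called lower.

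**Figure D5:**
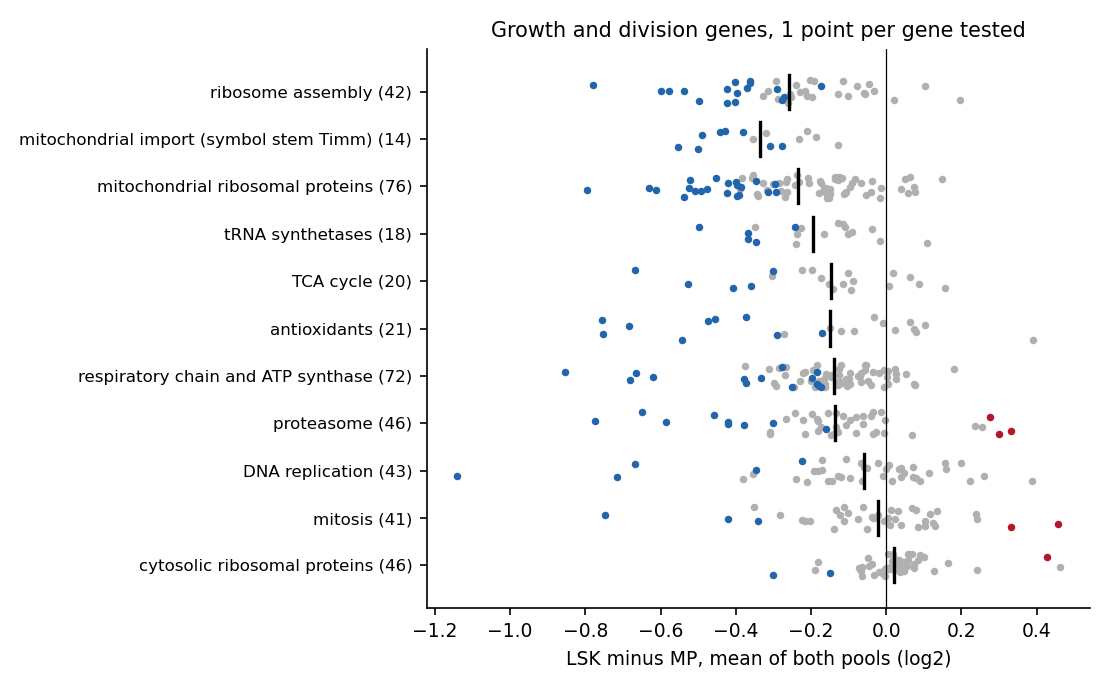
LSK minus MP (log2, mean of both pools) for each tested gene of 11 groups, with the number tested in brackets; blue points were called lower in LSK, red points higher, grey points not called, and the black bar is the group's median. Medians run from -0.34 for the Timm genes to 0.02 for cytosolic ribosomal proteins.

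Cell division genes had few called higher. Of 43 DNA replication genes 5 were called lower (11.6%) and none higher (median -0.06), with 8 lower after quantile normalization. Of 41 mitosis genes 3 were lower (7.32%) and 2 higher (median -0.02). Single regulators did differ. Ccne1, cyclin E1, was 11.19 (WT) and 10.57 (Smo-deficient) in LSK and 12.57 (WT) and 12.22 (Smo-deficient) in MP, 2.84-fold lower in LSK (-1.51 ± 0.10, adjusted p = 0.00037; other probe set -1.57). Orc5, of the origin recognition complex, was 10.20 and 9.93 in LSK against 11.51 and 10.90 in MP, 2.21-fold lower (-1.14 ± 0.12), and Cdc6, which loads the replicative helicase, differed by -0.72 ± 0.11. Cdkn1a, the cell cycle inhibitor p21, was 10.85 and 10.86 in LSK against 9.62 and 10.01 in MP, 2.06-fold higher (1.04 ± 0.13, adjusted p = 0.0029). Ccnd2 (0.77 ± 0.07), cyclin D2, and Cdkn2d (0.75 ± 0.12), another inhibitor, were higher too. Targets of p53 split, with Plk2 (1.26 ± 0.16), Trp53inp1 (1.28 ± 0.18) and Cdkn1a higher and Gadd45a (-0.94 ± 0.16) and Zmat3 (-0.73 ± 0.12) lower.

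Some families had few members called higher. Forkhead factors had 2 of 19 called higher and none lower, and hedgehog genes 1 of 14 in each direction. Potassium channels had 3 of 34 higher and 1 lower, and chaperonins and heat shock proteins 3 of 70 higher and 9 lower. Of 56 cadherins and protocadherins measured, 5 passed the filter on low levels and none was called (limma; 0 at an unadjusted p below 0.05). Chemokine receptors had none of 11 called higher and 2 lower (18.2%), and the share of chaperonins and heat shock proteins called lower was 12.9%, both above 7.54%.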

How the data were processed

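Gene expression was measured with Affymetrix arrays on 4 samples, 1 per combination of genotype and population, each from marrow pooled from 4 mice. The deposited values are intensities on a linear scale that the authors made with RMA, per the submitters' processing notes; the RMA version was not given in the sources used here. Array medians ran from 149.1 to 150.3. Precision is limited by the number of arrays.

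The deposited intensities were taken to log2 without further scaling. Of 45101 probe sets, 64 controls were left out, and 22518 with a mean above the 50th percentile (log2 7.23) were tested. The test was limma 3.58.1 in R 4.3.3, with population and pool in the model, a trend on mean level, 1 residual degree of freedom and Benjamini-Hochberg adjustment over all 22518; calls needed an adjusted p below 0.05, two-sided. The pairing comes from the labels, which put both populations of a genotype in 1 pool. The platform annotation gave 34945 probe sets 1 gene, 932 several genes and 9160 none. A gene was represented by its brightest probe set with 1 gene; 18193 genes were measured and 11904 tested. The fit was checked on simulated data.

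Named genes were drawn from the 25 called genes with the largest difference in each direction and 10 in each direction below the filter level in 1 population. Others came from up to 6 called members of each list in each direction, and uncalled members where a small family is described. Label checks and markers, the 10 largest opposite differences between pools, and genes in runs of neighbours were the rest. These rules picked 559 called genes, and the text names 211 called genes. Picked genes that are not described include Gcnt2 (3.09), Dntt (2.63) and Atp1b2 (-2.42). The members and lists were chosen with earlier results of these data known. Uncalled members of larger lists, and the Parp genes, were chosen after their values were seen. Promoters are from RefSeq (GRCm38.p6). Alternatives covered normalization, filter, pool, trend, floor, probe set and single arrays.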

Additional observations from a re-analysis of the deposited data

Results flagged for a closer look

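In 10 genes LSK minus MP had opposite signs in the 2 pools and differed between them by more than in any other such gene tested. With 1 array per group the difference was not tested in any of them. The values below are the Smo-deficient pool's difference minus the WT pool's, on the log2 scale. Iglv1, an immunoglobulin light chain segment, had -3.91, from 3.36 (WT) and -0.55 (Smo-deficient). Ddit4, a stress-induced inhibitor of mTOR, had 2.92, from -0.03 and 2.89. Ammecr1 had 2.08, from -1.93 and 0.15. Col1a2, a collagen chain of stromal cells, had -1.72, from 1.33 and -0.39. Fcrla, a B cell protein, had 1.45, from -0.69 and 0.76, and Tnfrsf14 had -1.44, from 0.07 and -1.37. Ncapg, a condensin subunit of dividing cells, had 1.37, from -0.18 and 1.19. Zc3h15 had 1.31, from -0.60 and 0.72, and Evi5 had 1.26, from -0.16 and 1.10. Smo had -1.28, from 0.30 and -0.98, and is the gene deleted in that pool. In all, 23 tested genes had opposite signs and pools at least 2-fold apart.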

How the results depend on the processing

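The direction of the called genes depended little on the settings, and the number called depended mostly on the pool. With the pool as a replicate block 1951 genes were higher in LSK and 898 lower; with no replicate block 560 and 84 were called, and 118 of the 211 called genes named here kept their call. All 644 of those calls were among the calls with the block. Quantile normalization gave 1421 lower genes. Asking for at least 2-fold in each pool left 316 higher and 99 lower. Leaving out 1 array, which leaves no pool block and assumes that the lone array varies like the other population's pair, gave 219 to 527 higher and 30 to 174 lower. The counts were 219 and 30 without Smo-deficient LSK, 242 and 45 without WT MP, 527 and 96 without WT LSK, and 526 and 174 without Smo-deficient MP. Without Smo-deficient LSK the differences of Hspa1a and Hspa1b turned to 0.0117 and 0.0585; the cause was not tested. With the probe set of median difference Fosl2 turned to -0.21, Socs5 to -0.0054 and Spry2 to -0.0546, since that choice reads another probe set. The other settings (cyclic loess, no filter, a filter at the 65th percentile, no trend, a floor at the filter level) kept both counts within 1.5 times. Of the 211 named genes, or the 193 that passed the stricter filter, none turned under these settings. None of the 211 turned in either pool alone, which their being called on the mean of both pools favours. Levels near or below 7.23 carry little signal over background, so differences that start there are the least precise.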

Other observations

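Notch and Wnt genes, both known from studies of stem cell renewal, did not lean as groups, with medians of -0.01 and 0.01. Of 22 Notch genes 4 were called higher in LSK and 2 lower. Mfng, a glycosyltransferase that tunes Notch receptors, was 11.19 and 11.39 in LSK against 9.83 and 9.97 in MP, 2.62-fold higher (1.39 ± 0.11, limma adjusted p = 0.00053). Nrarp, a feedback target, was 10.36 and 9.97 in LSK against 9.25 and 8.72 in MP (1.18 ± 0.11; other probe set 0.36), and Notch1 differed by 0.86 ± 0.15 (other probe set 0.12). Of 29 Wnt receptor and TCF/LEF genes 6 were higher and 2 lower. The receptor Fzd6 was 10.40 and 10.38 in LSK against 9.23 and 9.04 in MP, 2.39-fold higher (1.26 ± 0.12, limma adjusted p = 0.000938), and Wls, needed to release Wnt proteins, differed by 1.18 ± 0.20. Fzd7 was lower (-0.92 ± 0.13).

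Cathepsins, proteases of lysosomes and granules, split by member, with 5 of 13 called lower and 3 higher. Ctsg, a granule protease of neutrophil precursors, was 12.79 and 13.40 in LSK against 13.84 and 14.52 in MP, 2.13-fold lower (-1.09 ± 0.05, limma adjusted p = 0.000141). Ctso was 10.63 and 10.97 in LSK against 9.59 and 9.75 in MP, 2.18-fold higher (1.13 ± 0.11), and Ctsw, known from cytotoxic lymphocytes, differed by 1.03 ± 0.12. Among 25 imprinted genes 7 were higher and 1 lower. Ndn, which encodes necdin, a growth suppressor, was 10.75 and 10.68 in LSK against 6.38 and 6.24 in MP (4.40 ± 0.11), below 7.23 in both MP arrays. Its other probe sets gave 0.99 to 4.68.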
